A study of Mus musculus with 40 samples.

Results

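On ciliated airway cells, the axoneme of the motile cilium is the beating ring of microtubule doublets with its dynein motors. The genes described here mostly encode parts of it, or factors that assemble those motors. They were chosen by name, as every gene with a mouse symbol made of Cfap, Dnah, Dnaaf, Drc, Rsph or Tekt followed by a digit, and by level, a mean level of 1 CPM or more (counts scaled to one common library total) over the 20 libraries of a model. Of 55536 genes in the count tables, 67 symbols matched and 63 passed the level rule, the same 63 in both models. All 63 also passed the filter on low counts, so none of them is missing from the tests below. The mean level that chose them is given as a description only. Of the 63, 7 had no assigned role, among them Dnah2os, which is annotated as an antisense transcript. Just inside the threshold were Dnah17, with a mean of 1.98 CPM in the bleomycin model and 1.55 CPM in the other, Tekt5 at 2.72 and 2.85 CPM, and Dnah2os at 2.96 and 2.04 CPM. Just outside were Tekt3 at 0.88 and 0.96 CPM and Dnah14 at 0.84 and 0.62 CPM, followed by Rsph6a at 0.09 and 0.12 CPM and Cfap97d1 at 0.03 CPM in the bleomycin model.

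RNA came from left lungs of C57BL/6 mice, in 40 libraries that form 8 groups of 5. The labels call the 5 libraries of a group replicates and do not state that each is a separate mouse, so p-values measure the spread between these libraries. The first model used bleomycin, a DNA-damaging drug that injures the lung, given at 1.5 U/kg by the oropharyngeal route, with saline as its control. Mice were then dosed with vehicle or with saracatinib, which blocks kinases of the Src family, at 20 mg/kg. In the second model, mice received empty vector or Ad-TGF-β1, an adenovirus with mouse TGF-β1 under the CMV promoter, by the nose, and then vehicle or the same dose of saracatinib. Gavage was daily from day 10, all lungs were taken on day 28, and the labels give the time as 18 days after treatments. All groups, controls included, had an instillation or a vector and a daily gavage, and no group was left untouched. Mice of both sexes were used, and neither sex nor age is given for a library. The labels name no extraction or sequencing batch.

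A motile cilium is built around doublet microtubules that surround a central pair. Outer dynein arms drive the beat, inner arms shape it, radial spokes pass signals from the central apparatus to the arms, and the nexin-dynein regulatory complex ties neighbouring doublets together. The arms are assembled in the cytoplasm by dynein assembly factors before they enter the cilium. In the lung, such cilia are found on the multiciliated cells of the airways, where they move mucus outward, and loss of axoneme proteins causes primary ciliary dyskinesia. The transcription factors Foxj1, Rfx2 and Rfx3 switch on many axoneme genes, and Rfx proteins bind the X-box, a palindromic DNA motif near gene starts. In these bulk samples, fewer ciliated cells, less RNA per ciliated cell and a different share of airway in the sample cannot be told apart.

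Promoters are shown first, as a description of sequence. RefSeq promoter windows on GRCm38.p6, read over 250 bases before each gene's start, were found for 50 of the 63 members. The X-box was matched in 4 of the 50 (8%), against 178 of 27025 genes with such a window (0.659%). Those 4 matches, shown because all 4 genes are members with a complete X-box, are printed in capitals, 5′ to 3′ on the gene's strand.

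Cfap44: GTTGCTATGGCAAC

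Cfap45: GTTGCTATGGTAAC

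Cfap298: GTTGCCCGGGCAAC

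Dnaaf2: GTTACTATGGCAAC

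The match began 27 bases before the start in Cfap44, 19 in Cfap45, 17 in Dnaaf2 and 188 in Cfap298. In the GENCODE annotation the Cfap44 match lay outside exons, and the other 3 lay inside them. The core GTTGCC on either strand, which can overlap an X-box, was in 17 of the 50 members (34%) and in 11.8% of all genes. The forkhead core GTAAACA was in 3 members (6%) against 3.54%, and CCAAT, also on either strand, in 20 members (40%) against 37.5%. These shares describe letters in a fixed window, and neither binding nor activity of a factor was measured. Of the genes with an X-box, Cfap44 and Cfap45 were called lower with bleomycin in vehicle lungs, and Dnaaf2 and Cfap298 were not. All of them were called lower with Ad-TGF-β1 in vehicle lungs. The 5 runs below are shown as 1 gene with an X-box (Cfap44, an inner arm tether) and 4 with the shorter core on either strand, from the central apparatus, the doublet linker, the tektins and the doublet wall. The motif is in capitals. They lie at chr16:44394549-44394795 on the plus strand (Cfap44), chr7:139683818-139684065 on the minus strand (Cfap46), chr5:30281143-30281387 on the plus strand (Drc1), chr4:126325689-126325938 on the minus strand (Tekt2) and chr8:95434870-95435119 on the minus strand (Cfap20), and touch no annotated exon.

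Cfap44: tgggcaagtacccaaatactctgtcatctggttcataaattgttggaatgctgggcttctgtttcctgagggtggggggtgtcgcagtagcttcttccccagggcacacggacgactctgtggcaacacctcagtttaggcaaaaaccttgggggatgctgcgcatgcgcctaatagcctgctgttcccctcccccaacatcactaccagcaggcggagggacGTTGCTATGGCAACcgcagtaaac

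Cfap46: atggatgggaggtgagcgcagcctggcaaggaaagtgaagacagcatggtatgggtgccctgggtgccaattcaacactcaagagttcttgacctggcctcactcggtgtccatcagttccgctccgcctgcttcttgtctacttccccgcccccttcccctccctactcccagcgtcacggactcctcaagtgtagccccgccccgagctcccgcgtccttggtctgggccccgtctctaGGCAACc

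Drc1: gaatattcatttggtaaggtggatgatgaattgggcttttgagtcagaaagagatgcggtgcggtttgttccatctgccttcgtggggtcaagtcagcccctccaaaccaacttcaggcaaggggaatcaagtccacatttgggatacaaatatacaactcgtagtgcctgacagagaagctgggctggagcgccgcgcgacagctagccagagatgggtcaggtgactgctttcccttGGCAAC

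Tekt2: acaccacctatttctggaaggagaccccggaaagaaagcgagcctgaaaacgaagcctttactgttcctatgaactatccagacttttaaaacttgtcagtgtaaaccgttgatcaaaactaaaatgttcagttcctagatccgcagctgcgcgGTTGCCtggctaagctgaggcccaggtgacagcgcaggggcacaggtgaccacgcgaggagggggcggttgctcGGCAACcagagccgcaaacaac

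Cfap20: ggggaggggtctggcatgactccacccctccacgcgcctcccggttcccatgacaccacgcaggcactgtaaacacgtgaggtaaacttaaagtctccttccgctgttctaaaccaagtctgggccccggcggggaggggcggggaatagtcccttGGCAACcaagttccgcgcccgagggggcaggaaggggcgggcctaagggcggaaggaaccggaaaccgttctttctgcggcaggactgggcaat

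Total counts ran from 8.81 M to 17.3 M counts per library. For each library an axoneme level was taken as the mean log2 CPM over the 63 members, with no test, since the members were chosen with results known. Levels are on a scale set within each model. In the saline vehicle group the level was 4.89 ± 0.43 (SD, n = 5), with libraries from 4.41 to 5.58. In the bleomycin vehicle group it was 4.01 ± 0.47, from 3.35 to 4.55. The highest bleomycin library was thus above the lowest saline library. With saracatinib, the level was 5.16 ± 0.59 in saline lungs, from 4.61 to 6.04, and 4.32 ± 0.13 in bleomycin lungs, from 4.18 to 4.51. These ranges did not overlap. In the second model, the vehicle groups stood at 5.18 ± 0.49 with empty vector, from 4.35 to 5.58, and at 4.23 ± 0.25 with Ad-TGF-β1, from 3.97 to 4.62. With saracatinib they stood at 4.83 ± 0.28, from 4.51 to 5.20, and at 4.43 ± 0.14, from 4.23 to 4.57. In both pairs of the second model the groups overlapped.

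Single libraries carried much of the spread, and they did so across nearly all members at once. Saline vehicle library 5 was the highest of its group in 58 of 63 members, and the saline saracatinib library numbered 5 was the highest in 58. Bleomycin vehicle library 3 was the lowest of its group in 54 members, and empty vector vehicle library 1 in 59. Such counts were not particular to these libraries. Ad-TGF-β1 vehicle library 3 was the highest of its group in 55 members, empty vector saracatinib library 4 in 53 and bleomycin vehicle library 5 in 51. Saline vehicle library 4 was the lowest of its group in 53. Summed over the members, saline vehicle library 5 had 6747 CPM where the rest of its group had 2650 to 3985 CPM. Empty vector vehicle library 1 had 2409 CPM where the rest had 4579 to 6356 CPM. Library numbers are names only and pair no samples across groups.

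**Figure D1:**
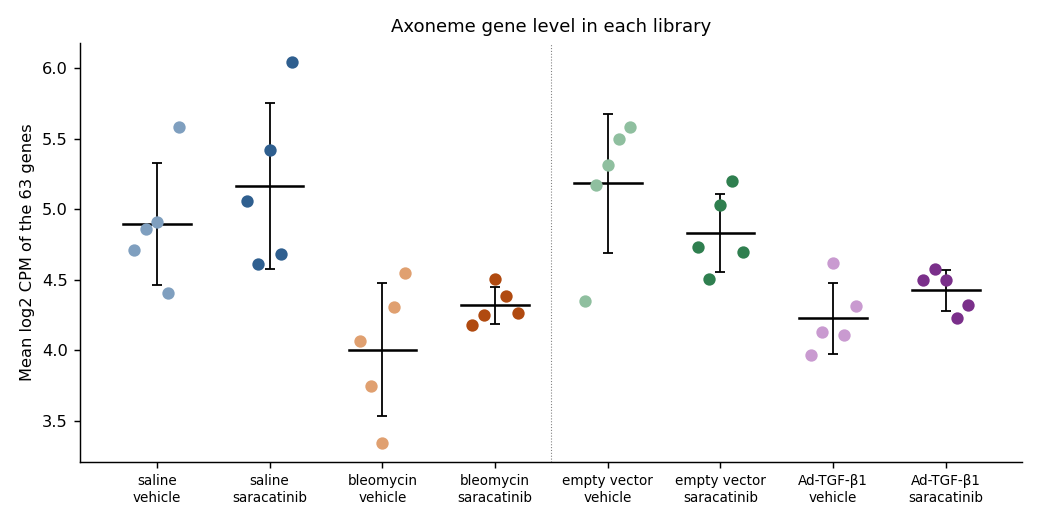
Axoneme level (mean log2 CPM over the 63 members) in each of the 40 libraries, by group, with group means and SD. Saline vehicle library 5 (5.58) is the highest and empty vector vehicle library 1 (4.35) the lowest of its group, and the bleomycin and Ad-TGF-β1 groups sit below their controls on average.

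Compared per kilobase of exon, mean levels over the bleomycin-model libraries were highest for Cfap65 of the central apparatus, at 25.5 CPM per kb, and for the inner arm heavy chain Dnah6, at 25.0 CPM per kb. Cfap44, an inner arm tether, followed at 20.7 CPM per kb and the heavy chain Dnah12 at 18.7 CPM per kb. The lowest was Dnah17 at 0.123 CPM per kb. Medians by role lay close together, from 4.54 CPM per kb for the members with no assigned role to 9.33 CPM per kb for the inner arm tethers, while single outer arm heavy chains ranged from 0.123 to 14.3 CPM per kb.

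Bleomycin in vehicle lungs was the first comparison, 5 libraries against 5. Axoneme genes fell across every structural role, with 50 of the 63 members lower and 1, Dnah17, higher. The median log2 fold change of the members was -1.03, against -0.03 over all 18846 genes tested. By the same test (edgeR's quasi-likelihood test, Benjamini-Hochberg adjusted p under 0.05 over all genes) 20.3% of all genes were lower and 20.6% higher. In 13 of 63 members every bleomycin library was below every saline library, which was so for 12.4% of all genes. For fits that leave out a library, no share of all genes called is given. Without saline vehicle library 5 the count of members called was 29 in place of 51, 28 of them lower. Among the members chosen by the rule for names, that omission alone ended the calls of Cfap20, Cfap44, Cfap61 and Rsph10b. Calls of Cfap43 and Cfap126 ended without that library or bleomycin vehicle library 3. Calls of Cfap45, Cfap54 and Dnaaf3 ended without any 1 of those libraries or bleomycin vehicle library 2, with adjusted p up to 0.101 (Dnaaf3).

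All 9 inner arm heavy chains fell, with log2 fold changes of -0.88 to -1.47. Dnah6, a heavy chain of a single-headed inner arm (chr6:73017606-73221651, minus strand, GRCm38), had 319, 388, 388, 266 and 694 CPM in the saline vehicle libraries. In the bleomycin vehicle libraries it had 174, 128, 74.3, 205 and 249.7 CPM. Every bleomycin value was below every saline value, and the log2 fold change was -1.30 ± 0.33 (SE, adjusted p = 0.00365). Dnah2, a heavy chain of the double-headed inner arm (chr11:69420809-69549110, minus strand), fell most of all members. It had 104, 119, 131, 103 and 211 CPM with saline against 49.99, 34.9, 30.0, 55.9 and 70.3 CPM with bleomycin, with no overlap. Its log2 fold change was -1.47 ± 0.30 (adjusted p = 0.000748). Dnah3, another inner arm chain, fell (-1.21 ± 0.33, adjusted p = 0.00706) from 289 ± 120.5 to 125 ± 47.9 CPM (SD, n = 5 each), and 1 bleomycin library (189 CPM) was above the lowest saline library (184 CPM). Dnah7a, Dnah7b and Dnah7c are close copies of one another, so the split of reads between them is uncertain, and all 3 were lower. Dnah3 shares 1506 exon bases with Lyrm1 on the other strand, and the sources used here do not give the strand setting of the counting.

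The outer arm heavy chains did not move as 1 block. Dnah5, the heavy chain most often mutated in primary ciliary dyskinesia (chr15:28203752-28472052, plus strand), had 207, 239, 264, 141 and 429 CPM with saline. With bleomycin it had 149.6, 105, 83.4, 176 and 215 CPM. The groups overlapped, since 3 bleomycin libraries were above the lowest saline library, and the log2 fold change was -0.81 ± 0.31 (adjusted p = 0.0426). This call was lost in 7 of 16 other fits. Dnah9, which pairs with Dnah5 in the distal cilium, had 154, 185, 188, 118 and 319 CPM with saline and 84.3, 61.4, 50.2, 109 and 137 CPM with bleomycin. Only 1 bleomycin library was above the lowest saline library. It fell by 1.12 ± 0.32 on the log2 scale (adjusted p = 0.00815), and Dnah11, the proximal partner, by 1.04 ± 0.29 (adjusted p = 0.00683).

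Dnah8 and Dnah17, outer arm chains known from sperm, were not called lower. Dnah8 had 21.2, 24.5, 21.0, 24.5 and 23.6 CPM with saline and 22.3, 20.0, 16.0, 23.4 and 21.4 CPM with bleomycin, a log2 fold change of -0.15 ± 0.11 that did not pass (adjusted p = 0.26). Dnah17 (chr11:118021723-118130634, minus strand) had 1.94, 1.31, 0.849, 1.07 and 1.15 CPM with saline. It had 3.03, 2.69, 4.62, 2.12 and 1.804 CPM with bleomycin, and it rose by 1.16 ± 0.27 on the log2 scale (adjusted p = 0.00194). Only the lowest bleomycin library lay within the saline range. Of its 16126 exon bases, 349 overlap genes on the other strand. The highest value, 4.62 CPM, was in bleomycin vehicle library 3, the library with the lowest axoneme level. Of 10 genes of testis germ cells, such as Tssk6 and Prm1, none passed the filter on low counts, and the highest count in any library was 7 (Tssk6).

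All 5 tethers and adaptors of the inner arms fell. Cfap44, whose promoter is shown above, had 162, 193, 203, 126 and 345 CPM with saline and 89.7, 75.2, 53.0, 109.8 and 154 CPM with bleomycin. The groups overlapped by 1 library on each side, with a log2 fold change of -1.10 ± 0.33 (adjusted p = 0.0121). Its partner Cfap43 fell by 1.03 ± 0.33 (adjusted p = 0.0181). Cfap73, a factor that modifies inner arms, fell by 1.26 ± 0.33 (adjusted p = 0.00535), with all 5 bleomycin libraries below all 5 saline libraries.

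The linkers between doublets moved with them. All 3 nexin-dynein regulatory complex members fell, and Drc1, its base (chr5:30281388-30366695, plus strand), had 31.1, 36.5, 38.4, 23.7 and 60.2 CPM with saline. With bleomycin it had 15.4, 11.9, 7.01, 16.6 and 22.6 CPM. These groups did not overlap, and the log2 fold change was -1.37 ± 0.30 (adjusted p = 0.00142). Drc3 fell by 1.04 ± 0.31 (adjusted p = 0.0115) and Drc7 by 1.00 ± 0.31 (adjusted p = 0.0158).

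The central apparatus fell as a whole, 8 of 8 members. Cfap65 (chr1:74902071-74935599, minus strand) had 180.4, 221, 227, 149 and 419 CPM with saline against 95.5, 69.0, 51.1, 108 and 159 CPM with bleomycin. Only 1 bleomycin library exceeded the lowest saline library, and the log2 fold change was -1.31 ± 0.35 (adjusted p = 0.00606). Cfap46 (chr7:139600951-139683817, minus strand) fell by 1.43 ± 0.36 (adjusted p = 0.00365) with no overlap, from 117 ± 50.1 to 43.5 ± 19.2 CPM. Cfap54, a large scaffold of the central apparatus, fell by 0.98 ± 0.33 (adjusted p = 0.0209), from 127 ± 52.4 to 64.3 ± 25.5 CPM, with overlap. The smallest change of the 8 was that of Cfap69, at -0.72 ± 0.22 (adjusted p = 0.0128).

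Of 9 radial spoke members, 6 fell. Rsph10b had 30.5, 33.3, 38.4, 28.6 and 66.9 CPM with saline and 19.1, 17.0, 12.6, 25.5 and 29.8 CPM with bleomycin. Only the highest bleomycin library was above the lowest saline library, and the log2 fold change was -0.92 ± 0.29 (adjusted p = 0.0162). Cfap61, a protein of the spoke base region, had 35.7, 41.8, 42.1, 27.7 and 74.3 CPM with saline against 19.3, 14.8, 10.2, 28.0 and 33.0 CPM with bleomycin. Its lowest saline library was below 2 bleomycin libraries, and the log2 fold change was -1.07 ± 0.34 (adjusted p = 0.0173). The spoke head genes Rsph1 and Rsph4a also fell, by 1.00 ± 0.30 (adjusted p = 0.0111) and 1.05 ± 0.29 (adjusted p = 0.00796). The third head gene, Rsph9, was at -0.50 ± 0.26 and did not pass (adjusted p = 0.134). The spoke stalk genes Rsph3a and Rsph3b, close copies whose reads may be shared, were at -0.39 and -0.35 and did not pass.

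Inside the doublet wall, 6 of 7 inner proteins fell, and the sizes differed widely. Cfap45, one of the genes with an X-box, had 22.2, 28.5, 27.2, 17.4 and 41.9 CPM with saline and 14.3, 10.1, 12.1, 19.2 and 22.8 CPM with bleomycin. These groups overlapped (-0.81 ± 0.28, adjusted p = 0.0254). Cfap161 had a log2 fold change of -1.32 ± 0.31 (adjusted p = 0.0024). Cfap20, a protein of the inner junction of the doublet (chr8:95420249-95434869, minus strand), had 38.4, 40.9, 40.6, 39.1 and 49.5 CPM with saline and 35.8, 31.3, 31.7, 32.9 and 34.4 CPM with bleomycin. Its groups did not overlap although its log2 fold change was only -0.33 ± 0.11 (adjusted p = 0.018). Cfap52 was at -0.60 ± 0.31 and did not pass (adjusted p = 0.131). Of the tektins, filament proteins of the doublet, Tekt1, Tekt2 and Tekt4 fell. Tekt1 had 15.2, 18.1, 19.0, 11.3 and 33.2 CPM with saline against 8.84, 7.26, 6.32, 10.1 and 13.2 CPM with bleomycin, overlapping in 1 library (-1.08 ± 0.30, adjusted p = 0.0083). Tekt2, whose promoter is shown above, fell by 1.09 ± 0.28 (adjusted p = 0.00429), from 14.7 ± 6.28 to 6.86 ± 2.16 CPM. Tekt5, the other one, known from sperm, was at 0.43 ± 0.20 (adjusted p = 0.0868) and passed with limma voom and without saline vehicle library 1.

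Among the 6 dynein arm assembly factors, 3 fell. Dnaaf3 (chr7:4522933-4532453, minus strand) had 20.0, 22.8, 26.8, 14.6 and 50.04 CPM with saline and 13.3, 9.72, 7.47, 15.2 and 19.5 CPM with bleomycin. The groups overlapped, and the log2 fold change was -1.04 ± 0.34 (adjusted p = 0.0209). Dnaaf1 fell by 1.34 ± 0.36 (adjusted p = 0.00636) and Cfap300 by 0.70 ± 0.20 (adjusted p = 0.00995). Dnaaf2, Dnaaf5 and Cfap298 were at -0.59, -0.24 and -0.40 and did not pass. Dnaaf2 has 3390 exon bases, with 1107 shared with 9330151L19Rik on the other strand. Its overlap with genes on the same strand, summed over those genes, is 1457 bases. Cfap298 shares 703 of its 1589 exon bases with Gm49727 on the other strand. The counts of both genes are uncertain to that extent.

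Members with no assigned role included those with the smallest changes. Cfap36 had 30.1, 30.1, 29.1, 26.0 and 32.0 CPM with saline and 30.0, 31.8, 26.0, 29.3 and 27.8 CPM with bleomycin, a log2 fold change of -0.02 ± 0.08 (adjusted p = 0.842). Cfap97 was at 0.11 ± 0.09 (adjusted p = 0.362). Cfap157 fell by 1.41 ± 0.34 (adjusted p = 0.00289). Dnah2os lies antisense to Dnah2 and shares 312 exon bases with it, so without a known strand setting its reads cannot be separated from those of Dnah2, and it was at 0.28 ± 0.32 (adjusted p = 0.504).

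**Figure D2:**
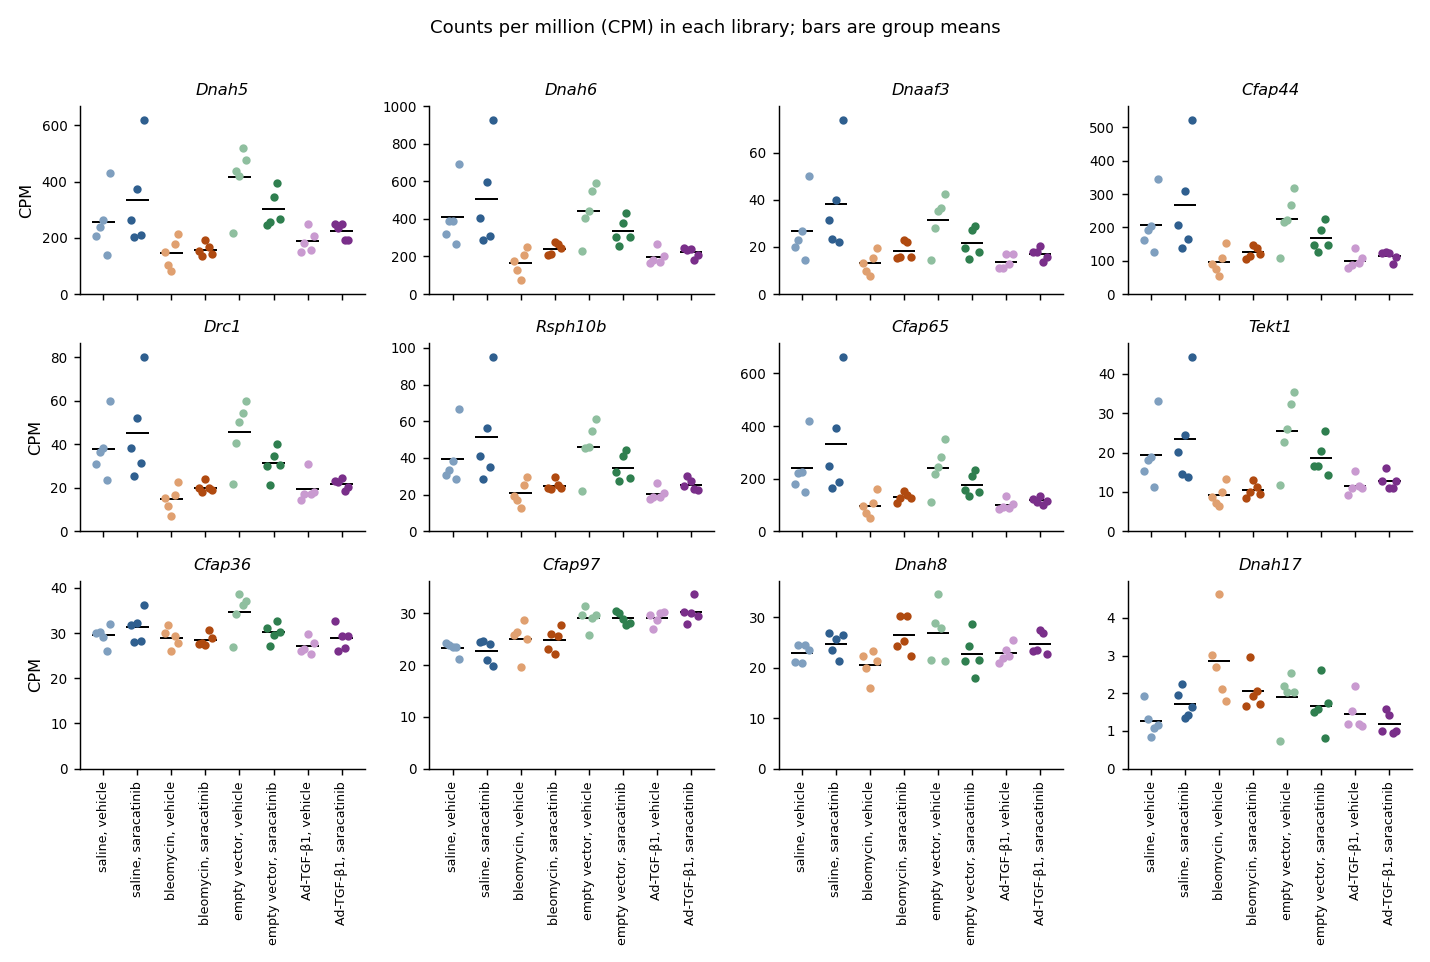
CPM in each library of the 8 groups for 12 members, 1 panel per gene, with group means. Dnah6, Drc1 and Cfap65 drop in both injured vehicle groups, Cfap36 and Cfap97 differ little between bleomycin and saline vehicle lungs, and Dnah17 is higher in bleomycin vehicle lungs (2.85 ± 1.098 CPM) than in saline vehicle lungs (1.26 ± 0.413 CPM).

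Within the axoneme total, the roles shifted their shares with bleomycin in vehicle lungs. Inner arm heavy chains made up 38.5 ± 0.88% of the summed CPM of the members in saline vehicle lungs and 34.4 ± 1.32% in bleomycin vehicle lungs (SD, n = 5). Outer arm heavy chains made up 15.5 ± 0.52% and 17.1 ± 0.50%, and doublet inner proteins 3.73 ± 0.34% and 4.82 ± 0.65%. The ranges of both groups did not overlap for 6 roles, inner and outer arms, doublet inner proteins, central apparatus, assembly factors and radial spokes, with 37.4 to 39.7% against 32.1 to 35.6% for inner arms and 14.8 to 16.1% against 16.5 to 17.6% for outer arms. The doublet inner proteins had 3.16 to 4.07% against 4.16 to 5.89%, and the central apparatus 16.7 to 17.4% against 15 to 16.5%. The assembly factors had 2.36 to 2.68% against 2.92 to 4.31%, and the radial spokes 5.41 to 5.95% against 6.18 to 6.48%. The other comparisons were less clear. With saracatinib, outer arms overlapped (15 to 16.1% in saline against 15.6 to 17% in bleomycin lungs). With Ad-TGF-β1 in vehicle lungs, inner arms (33.8 to 36.8% with empty vector against 33 to 34.5%) and outer arms (17.4 to 20.6% against 19.8 to 21.1%) overlapped. Among saracatinib lungs of that model, inner arms did not overlap (33.9 to 36.3% against 32.9 to 33.8%). No test was made of these shares.

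Ad-TGF-β1 in vehicle lungs, the second comparison, lowered 57 of the 63 members and raised none. Among all 18834 genes tested, 14.3% were lower. The median log2 fold change of the members was -1.16, against -0.01 over all genes. Only 3 members (Cfap126, Cfap161 and Cfap52) had every Ad-TGF-β1 library below every empty vector library, against 3.33% of all genes. The axoneme level of empty vector vehicle library 1, 4.35, was within the range of the Ad-TGF-β1 libraries. The count was 57 to 59 when any 1 library was left out.

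The inner arm, central apparatus, tether, linker, doublet and assembly roles fell in full, with 9 of 9, 8 of 8, 5 of 5, 3 of 3, 7 of 7 and 6 of 6 members. Dnah6 had 227, 403, 441, 548 and 588 CPM in the empty vector vehicle libraries. It had 163, 182, 265, 173 and 201 CPM in the Ad-TGF-β1 vehicle libraries. Empty vector library 1, at 227 CPM, was within the injured range and the other 4 were above it. The log2 fold change was -1.17 ± 0.20 (adjusted p = 0.000886). Dnah2 was at -1.01 ± 0.18 (adjusted p = 0.0011), a smaller change than in bleomycin lungs by 0.46, and a test of that difference between models did not pass (adjusted p = 0.44).

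The largest changes were in Cfap126, Cfap73 and Tekt4. Cfap126, also called Flattop, a doublet inner protein (chr1:171113918-171126967, plus strand), had 11.3, 19.8, 23.2, 30.2 and 34.1 CPM with empty vector against 6.44, 7.99, 11.2, 6.84 and 9.51 CPM with Ad-TGF-β1. These groups just failed to touch, and the log2 fold change was -1.50 ± 0.27 (adjusted p = 0.00109). Cfap73 fell by 1.39 ± 0.23 (adjusted p = 0.000819) and Tekt4 by 1.37 ± 0.28 (adjusted p = 0.00206). Drc1 fell by 1.22 ± 0.23 (adjusted p = 0.00131), from 45.5 ± 14.9 to 19.6 ± 6.54 CPM.

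Of the outer arm chains, Dnah5, Dnah9 and Dnah11 fell. Dnah5 had 217, 439, 420.5, 520.1 and 477 CPM with empty vector and 149, 183, 249, 155 and 207 CPM with Ad-TGF-β1. Again only empty vector library 1 lay inside the injured range, and the log2 fold change was -1.14 ± 0.19 (adjusted p = 0.000886). Dnah11 had the smallest fall of these 3, 0.66 ± 0.17 (adjusted p = 0.00846). Dnah8 was at -0.23 ± 0.13 (adjusted p = 0.193). Dnah17 was at -0.40 ± 0.30 (adjusted p = 0.348), with 0.744, 2.20, 2.04, 2.53 and 2.04 CPM with empty vector and 1.18, 1.53, 2.18, 1.19 and 1.13 CPM with Ad-TGF-β1.

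All 6 assembly factors fell in this model, where the exon overlaps of Dnaaf2 and Cfap298 given above apply too. Dnaaf3 was at -1.18 ± 0.23 (adjusted p = 0.00161), Dnaaf2 at -0.98 ± 0.23 (adjusted p = 0.00425) and Dnaaf5 at -0.58 ± 0.15 (adjusted p = 0.00775). Among the 9 radial spoke members 8 fell, Rsph9 among them (-1.03 ± 0.18, adjusted p = 0.00106), and Rsph3b, at -0.30 ± 0.12, did not pass (adjusted p = 0.0669). Cfap36 fell slightly, by 0.35 ± 0.09 (adjusted p = 0.0068). Cfap97, Tekt5 and Dnah2os, at 0.00, 0.00 and 0.34, did not pass.

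All 50 members that fell with bleomycin were among the 57 that fell with Ad-TGF-β1, which is 100% of the first list and 87.7% of the second. Since the second list held 57 of the 63 members, a large overlap was mostly set by its length. The overlap among all genes was not counted. These comparisons share no library. The 7 members on the second list only were Dnaaf5, Cfap36, Cfap52, Dnaaf2, Cfap298, Rsph3a and Rsph9. With bleomycin these 7 were between -0.60 (Cfap52) and -0.02 (Cfap36), and the sign of Cfap36 turned in some other fits. The test of the difference in injury effect between models, over all 40 libraries and 19529 genes, passed for 2 members, both higher in the bleomycin model, against 8.64% of all genes higher. They were Dnah17, with a difference of 1.56 ± 0.41 on the log2 scale (adjusted p = 0.00778), and Cfap36, with 0.34 ± 0.12 (adjusted p = 0.0428). Cfap36 lost this call in 17 of 25 other fits, and Dnah17 in none. The median difference over the members was 0.12, and over all genes 0.03.

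**Figure D3:**
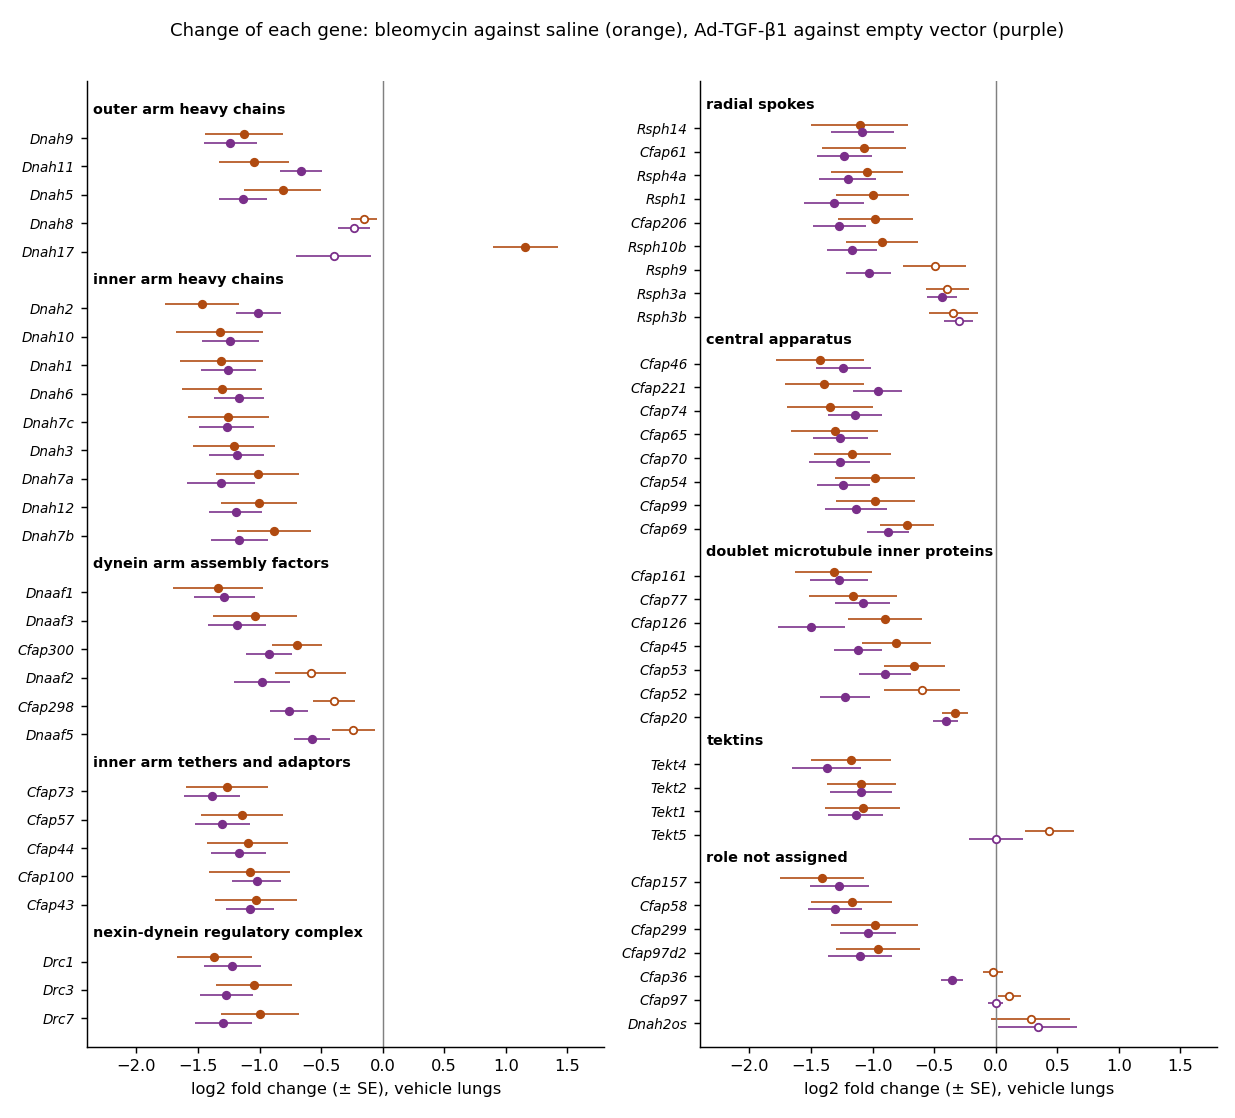
Log2 fold change (± SE) of each of the 63 members in vehicle lungs, ordered by role, with bleomycin in orange and Ad-TGF-β1 in purple and filled points for called members. Most points lie near -1 in both models, and Dnah17 is at 1.16 with bleomycin and -0.40 with Ad-TGF-β1.

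The control groups of both models were also compared. Between empty vector and saline vehicle lungs, 2 of 63 members were called higher with empty vector, against 13.9% of all genes. None was called lower, against 12.3% of all genes, so members were called less often than genes at large. Cfap300 differed by 0.63 ± 0.19 on the log2 scale (adjusted p = 0.0141) and Cfap97 by 0.26 ± 0.08 (adjusted p = 0.0118), the latter with 29.7, 31.5, 25.9, 29.1 and 29.7 CPM against 24.2, 23.9, 23.5, 23.5 and 21.3 CPM. Route, vector and model are the same split here and cannot be told apart. The median over the members was 0.24. Without saline vehicle library 5 the count of called members was 11, without empty vector vehicle library 1 it was 9, and without empty vector vehicle library 2 (which ended the call of Cfap97) or 5 (which ended that of Cfap300) it was 1. The call of Cfap97 was also lost with no filter on low counts, and that of Cfap300 with only the compared groups.

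Saracatinib was compared with vehicle within each kind of lung. In saline lungs none of the 63 members was called by edgeR, against 0.00531% of all genes called in either direction. An unadjusted p under 0.05 was found in 1 member and in 1401 of all 18846 genes. DESeq2 and limma voom also called 0 members. The median log2 fold change was 0.33, and it ran from -0.005 to 0.58 when 1 library was left out.

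In bleomycin lungs, 1 member was called higher with saracatinib, against 5.31% of all genes, and none lower. This was Dnah8, with 24.2, 30.4, 25.4, 30.2 and 22.4 CPM with saracatinib against 22.3, 20.0, 16.0, 23.4 and 21.4 CPM with vehicle. The groups overlapped, and the log2 fold change was 0.36 ± 0.11 (adjusted p = 0.0268). The call was lost in 8 of 16 other fits: with no filter on low counts, with limma voom, with only the compared groups, without the pair of libraries farthest out (an alternative added after seeing the data), and without bleomycin vehicle library 2 or 3 or bleomycin saracatinib library 2 or 4. The median over the members was 0.29, with 6 of 63 members below 0. Dnah6 was at 0.54, Dnah2 at 0.62 and Cfap46 at 0.59, and none of these passed. Dnah17 was at -0.46 and did not pass.

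The comparison of bleomycin with saline was therefore repeated among the saracatinib lungs, which share no library with the vehicle lungs. Here 52 of 63 members were lower and none higher, against 8.18% of all genes lower, and the median was -1.09. In 36 members every bleomycin library was below every saline library, against 5.06% of all genes. Dnah6 was at -1.07 ± 0.32 (adjusted p = 0.0315), Dnah5 at -1.08 ± 0.31 (adjusted p = 0.0252) and Drc1 at -1.17 ± 0.30 (adjusted p = 0.0132). The calls of Dnah6 and Dnah5 were each lost in 7 of 16 other fits, and that of Drc1 in 0. The list held 49 of the 50 members that fell in vehicle lungs, 98% of that list and 94.2% of this one. With 52 of 63 members on this list, a large overlap was mostly set by its length. Dnah17, at 0.24 ± 0.26, did not pass (adjusted p = 0.587).

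This count rested on several libraries. It was 11 without saline saracatinib library 5, 26 without library 3 of the same group, and 23, 33 and 28 without bleomycin saracatinib libraries 1, 4 and 5. The test of whether saracatinib changed the bleomycin effect called 0 members by edgeR, DESeq2 and limma voom, against 1.06% of all genes by edgeR. An unadjusted p under 0.05 was found in 2 members and in 3449 of all 18846 genes. The median of this interaction was -0.05.

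In the second model, the Ad-TGF-β1 effect among saracatinib lungs called 0 members by edgeR, against 0.361% of all genes lower. An unadjusted p under 0.05 was found in 35 of 63 members and in 3186 of all 18834 genes. Below 0 were 61 members and 9814 of all genes. The lowest adjusted p was 0.0881 (Dnah7a, -0.92 ± 0.28), DESeq2 called 1 member and limma voom 4. The median was -0.49, and in 7 members every Ad-TGF-β1 library was below every empty vector library, against 1.49% of all genes. Dnah6 had 306, 258, 377, 434 and 304 CPM with empty vector and saracatinib, and 246, 236, 242, 184 and 209 CPM with Ad-TGF-β1 and saracatinib. These did not overlap, and the log2 fold change was -0.59 ± 0.20 (adjusted p = 0.131).

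The mean axoneme levels of both saracatinib groups, 4.83 and 4.43, lay between those of the vehicle groups, 5.18 and 4.23. Saracatinib in empty vector lungs called 0 members by edgeR, DESeq2 and limma voom, 23 had an unadjusted p under 0.05, and all 63 were below 0, with a median of -0.44. Among all 18834 genes 0.00531% were called, and 2084 had an unadjusted p under 0.05. In Ad-TGF-β1 lungs it called 0 members by the same tools, against 0.0903% of all genes by edgeR, and the median was 0.20. There, 2 members and 1649 of all 18834 genes had an unadjusted p under 0.05. The interaction called 0 members by edgeR and DESeq2 and 8 by limma voom, and edgeR called 0% of all genes. An unadjusted p under 0.05 was found in 30 of 63 members and in 1933 of all 18834 genes. The median over the members was 0.64.

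Empty vector vehicle library 1 decided these counts. Without it, saracatinib in empty vector lungs called 32 members, all lower, and the interaction called 30 members, all higher. The shares of all genes given above come from the full fits, and no share is given for the fits without that library. Without any other single library both counts were 0. That library had the lowest level of its group in 59 members, and its ciliated marker level, 5.18, and club marker level, 6.39, were also the lowest of its group.

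**Figure D4:**
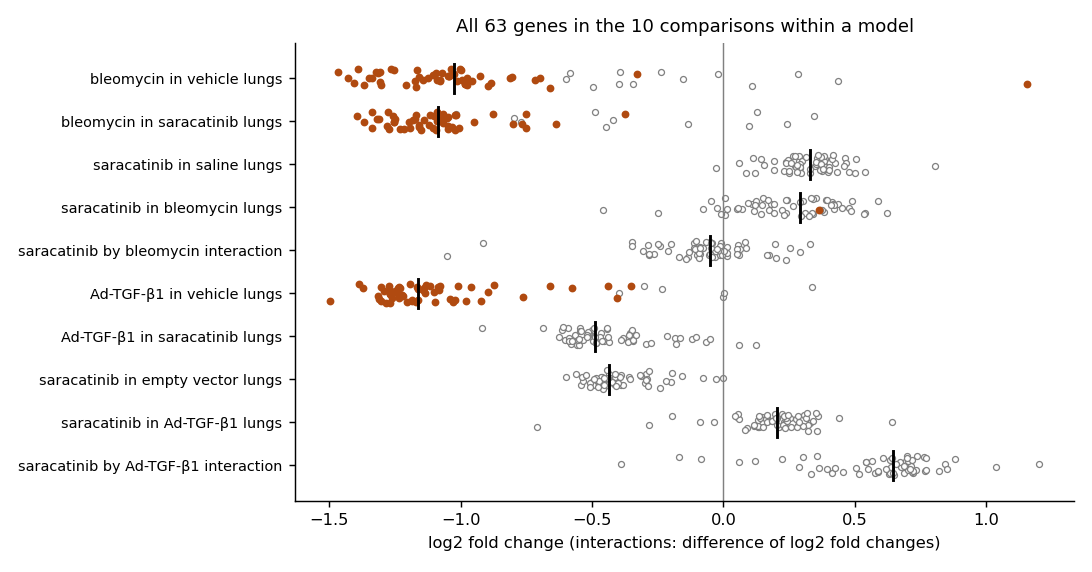
Log2 fold changes of the 63 members in the comparisons within each model, 1 point per member, filled where called, with a line at the median. The medians are -1.03 and -1.09 for bleomycin in vehicle and saracatinib lungs, and -1.16 and -0.49 for Ad-TGF-β1.

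The other genes of the ciliary pathway, none of them members, came from lists written for this work. In vehicle lungs, the intermediate and light chains of the dynein arms fell in 7 of 9 tested genes with bleomycin and 9 of 9 with Ad-TGF-β1. Docking and assembly genes fell in 10 and 13 of 15. Further genes listed with the nexin-dynein regulatory complex fell in 11 and 11 of 11, and the spoke and central apparatus partners in 16 and 19 of 19. Axonemal tubulin partners fell in 10 and 14 of 16. Intraflagellar transport, the trains that carry parts into cilia of all kinds, had 12 lower and 1 higher of 26 with bleomycin (median -0.35) and 23 lower of 26 with Ad-TGF-β1 (median -0.53).

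Regulators of multiciliated cell fate were lower in 5 of 13 with bleomycin and 11 of 13 with Ad-TGF-β1. Foxj1, the master factor of motile cilia, had 109, 117, 141, 91.5 and 207 CPM with saline and 64.6, 39.6, 37.4, 81.6 and 120 CPM with bleomycin. The groups overlapped, with 1 bleomycin library above 3 saline libraries, and the log2 fold change was -0.95 ± 0.33 (adjusted p = 0.0266). The bleomycin calls of Foxj1 and Rfx3 were lost without saline vehicle library 5 or bleomycin vehicle library 2 or 3, with adjusted p up to 0.0937 and 0.0831, and that of Trp73 without saline vehicle library 5 (adjusted p = 0.0621). With Ad-TGF-β1 Foxj1 was at -1.08 ± 0.20 (adjusted p = 0.00126). Rfx2 fell by 0.93 ± 0.23 (adjusted p = 0.00373) and 0.71 ± 0.16 (adjusted p = 0.00382), and Rfx3 by 0.46 ± 0.15 (adjusted p = 0.0217) and 0.59 ± 0.14 (adjusted p = 0.00448). Gmnc, which starts the multiciliated programme, fell by 1.77 ± 0.35 (adjusted p = 0.000508) and 1.25 ± 0.25 (adjusted p = 0.00186), and Trp73 by 1.20 ± 0.37 (adjusted p = 0.0136) and 1.29 ± 0.22 (adjusted p = 0.000856).

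Ccno and Deup1, genes of centriole amplification (a step in making a multiciliated cell), and the regulators Mcidas and Myb were uneven. Ccno was at -0.05 ± 0.32 with bleomycin (adjusted p = 0.921) and fell by 1.69 ± 0.38 with Ad-TGF-β1 (adjusted p = 0.00362). The difference between models was 1.64 for this gene (adjusted p = 0.0247), and that call was lost in 4 of 25 other fits. Deup1 and Mcidas were at -0.62 and -0.65 with bleomycin and did not pass, and both fell with Ad-TGF-β1, by 1.37 ± 0.26 (adjusted p = 0.00141) and 1.53 ± 0.46 (adjusted p = 0.0192). The Mcidas calls varied, since the Ad-TGF-β1 one was lost in 3 of 15 other fits and the bleomycin one was gained without bleomycin vehicle library 5. Myb was at -0.65 ± 0.32 (adjusted p = 0.115) and fell by 0.95 ± 0.20 with Ad-TGF-β1 (adjusted p = 0.00237). For Deup1 the difference between models did not pass (adjusted p = 0.251).

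Markers of ciliated and club cells were lower along with the members. Of 18 markers of ciliated cells, 16 were lower with bleomycin and 18 with Ad-TGF-β1. The marker level of that list (mean log2 CPM) ran from 4.94 to 6.23 in saline vehicle libraries and from 3.60 to 5.16 in bleomycin vehicle libraries. It ran from 5.18 to 6.44 with empty vector and from 4.65 to 5.39 with Ad-TGF-β1. Of the markers of club cells, the secretory cells of the airways, 10 were lower and 1 higher of 12 with bleomycin and 11 of 11 were lower with Ad-TGF-β1. The club level was 6.67 ± 0.31 with saline, 5.62 ± 0.67 with bleomycin, 7.15 ± 0.45 with empty vector and 6.22 ± 0.27 with Ad-TGF-β1.

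Airway smooth muscle markers were lower in 5 and 6 of 9. Striated muscle markers were lower in 7 of 10 with bleomycin and called in 0 of 10 with Ad-TGF-β1. Their level (mean log2 CPM) was 3.85 ± 0.73 with saline, from 2.73 to 4.38, and 2.43 ± 0.64 with bleomycin, from 1.69 to 3.12, and it was 5.81 ± 1.63 with empty vector and 5.56 ± 0.93 with Ad-TGF-β1. Of basal cell markers, 4 of 7 tested were higher with bleomycin and 0 of 5 were called with Ad-TGF-β1. Markers of alveolar type 2 cells, which carry no motile cilia, were higher in 2 of 11 with bleomycin and 10 of 11 with Ad-TGF-β1. Goblet markers were called in 0 of 9 and lower in 2 of 10. Alveolar type 1 markers were higher in 2 and 3 of 10, neuroendocrine markers lower in 1 of 6 and 0 of 5, and mesothelial markers lower in 2 and 2 of 7, with 1 higher with bleomycin. Saline vehicle library 5 had the highest club (7.10) and airway smooth muscle (7.17) levels of its group. Its alveolar type 1 (7.78) and type 2 (8.66) levels were the lowest. Saline saracatinib library 5 showed the same order in its group, and empty vector vehicle library 1 the reverse. Bleomycin vehicle library 3 had the lowest club (4.705) and alveolar type 2 (9.03) levels of its group. The part of airway and muscle content in the changes of the members was not tested.

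The members tracked the ciliated markers closely from library to library. Some of these markers are themselves ciliary genes. Hydin, Nme5, Dynlrb2 and Ccdc113 were also counted in the pathway lists above, and Foxj1 among the regulators. Close tracking, and a small change once the markers are a covariate, are therefore partly built into the lists. The axoneme level minus the ciliated marker level was -0.63 ± 0.06 in saline vehicle lungs and -0.49 ± 0.16 in bleomycin vehicle lungs, where library 3 was at -0.25 and library 2 at -0.38. It was -0.81 ± 0.04 with empty vector and -0.73 ± 0.04 with Ad-TGF-β1. These levels are ratios within a library, and the bleomycin group overlapped its control. With the ciliated marker level as a covariate, the median log2 fold change of the members was 0.03 for bleomycin and -0.004 for Ad-TGF-β1 in vehicle lungs. The members called in that fit were 5 for bleomycin and 0 for Ad-TGF-β1. No share of all genes called is given for that fit, so these counts do not set the members apart from other genes. The 5 were Drc1 (-0.32) and Dnah2 (-0.49), lower, and Cfap52 (0.47), Dnaaf5 (0.315) and Dnah5 (0.29), higher, all relative to the ciliated markers.

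**Figure D5:**
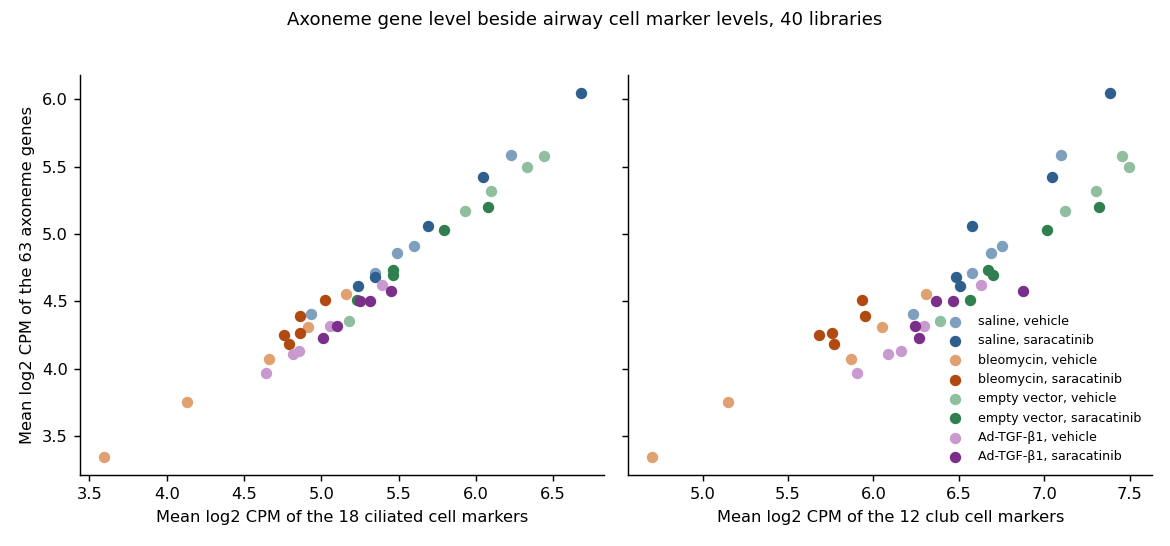
Axoneme level of each library against the level of 18 ciliated cell markers and of 12 club cell markers (mean log2 CPM), coloured by group. Libraries of all 8 groups lie along a narrow band for ciliated markers, and bleomycin vehicle library 3, with an axoneme level of 3.35, is at the low end of both panels.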

How the data were processed

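Left lung RNA was extracted with the miRNeasy kit and sequenced on a NovaSeq after ribosomal depletion with a stranded kit, per the labels' protocols. Per the submitters' processing notes, the tools were STAR 2.6.1d, Picard, featureCounts of Subread 1.6.3 and edgeR, and the builds mm9 and GRCm38. The deposited values are counts, whole numbers per gene and library, and the sources used here do not give the strand setting. The authors' shorter tables, named as TMM normalized, hold rows of the same whole-number counts (all 14832 genes of the first model's table and all 14856 of the second's) and were not used.

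Of 55536 identifiers, 55450 matched GENCODE M21 (GRCm38), which gave symbols, exons and positions. Tests ran in R 4.3.3 (DESeq2 1.42.0, edgeR 4.0.16, limma 3.58.1). Low counts were removed by edgeR's filterByExpr on the groups, and TMM scaled the libraries (factors 0.949 to 1.04). edgeR's quasi-likelihood test had 1 coefficient per group. Each model's 4 groups shared 1 fit, and comparisons between models used a fit of all 40 libraries. P-values were Benjamini-Hochberg adjusted over all genes tested, with calls at an adjusted p under 0.05. CPM uses TMM-scaled totals, and log2 CPM a prior count of 2. For each of 80 replicate pairs within groups, chi-square was divided by its degrees of freedom (genes with at least 40 counts in the pair). This ratio was between 4.63 and 58.8, above the 1 of counting noise, so no library was a copy of another in its group. Pairs across groups were not compared in this way. The scripts were tested on simulated data.

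The members, role lists and other lists were chosen with earlier results of these data known, and roles come from general knowledge. The rule for named members took the 2 most abundant members of each role, members called against the majority, and the regulators. It also took the 3 lowest and 3 highest log2 fold changes, with sign, of each injury comparison in vehicle lungs. Any other member may be named by its role. Alternatives were DESeq2's size factors, no filter, DESeq2, limma voom with quality weights, only the compared groups, the ciliated marker level as a covariate, and each library left out in turn. Promoters came from RefSeq (GRCm38.p6), and the 5 longer runs printed are stretches outside GENCODE exons, while 3 of the 4 short X-box matches lie inside exons.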

Additional observations from a re-analysis of the deposited data

Results flagged for a closer look

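In 256 sets of 5 values (a named member or the axoneme level in 1 group), 11 (4.3%) had a highest or lowest library far from the other 4 by Dixon's test, and chance flags about 1 in 20 such sets. No axoneme level was among them. Of the 11, 8 were in saline vehicle library 5. It was the highest of its group for Dnah6 (694.1 CPM), Dnah3 (495.1 CPM), Cfap65 (418.7 CPM), Dnah2 (211.5 CPM), Rsph10b (66.9 CPM), Cfap20 (49.52 CPM) and Dnaaf5 (39.15 CPM), and the lowest for Cfap97 (21.25 CPM). The others were Drc1 at 30.97 CPM in Ad-TGF-β1 vehicle library 3, Cfap73 at 8.2 CPM in empty vector saracatinib library 4, both the highest of their group, and Dnah17 at 0.7445 CPM in empty vector vehicle library 1, the lowest.

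The injury effect in vehicle lungs differed between the models, by edgeR's test of the difference itself, for Dnah17 (1.565 on the log2 scale, higher in the bleomycin model) and for Cfap36 (0.336).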

How the results depend on the processing

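Fits with the ciliated marker level as a covariate (planned for medians, applied to counts after seeing the data) changed the number of called members most: 5 in place of 51 for bleomycin in vehicle lungs, 1 in place of 52 for bleomycin in saracatinib lungs, 5 in place of 1 for saracatinib in bleomycin lungs, 1 in place of 0 for the interaction in the bleomycin model and 0 in place of 57 for Ad-TGF-β1 in vehicle lungs. Median log2 fold changes in those fits were 0.03 and 0.02 for bleomycin in vehicle and saracatinib lungs, -0.003708 and -0.07 for Ad-TGF-β1 in the same order, 0.02 for saracatinib in empty vector lungs and -0.07 for the interaction of the second model. The covariate is itself lower in injured lungs, and it includes ciliary genes such as Hydin that are also in the pathway lists. No share of all genes called is given for those fits. Without bleomycin vehicle library 3 and saline saracatinib library 5 together, also added after seeing the data, bleomycin in saracatinib lungs called 25 and saracatinib in bleomycin lungs 0. With no filter, with limma voom and with only the compared groups, the latter called 0. Ad-TGF-β1 in saracatinib lungs called 1 with DESeq2, 4 with limma voom and 4 with only the compared groups, in place of 0. The interaction of the second model called 8 with limma voom. The difference between models called 1, 6 and 1, and empty vector against saline 1, 28 and 1, with no filter, limma voom and only the compared groups, in place of 2 and 2.

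With each library left out in turn, the counts ran from 29 to 52 and from 11 to 55 for bleomycin in vehicle and saracatinib lungs, 0 to 1 for saracatinib in bleomycin lungs, 57 to 59 for Ad-TGF-β1 in vehicle lungs, 0 to 32 for saracatinib in empty vector lungs, 0 to 30 for the interaction of the second model, 1 to 2 for the difference between models and 1 to 11 for empty vector against saline. The difference between models was 1 in 15 of its 20 such fits. The cause of these changes was not tested, and no share of all genes called is given for these fits.

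Of the single-gene values in other settings, 1931 kept their direction and side of the threshold, 197 lost the call, 40 gained one and 27 turned sign, none of the last passing the test. Ccno with bleomycin was 0.01058 without both libraries named above and -0.2847 to 0.125 with 1 left out. Cfap36 with bleomycin was 0.00395 with no filter, 0.02105 with limma voom, 0.01557 without both libraries and -0.05739 to 0.01636 with 1 left out. Cfap97 with Ad-TGF-β1 was 0.001379 with DESeq2's size factors, 0.0138 with no filter, 0.00474 with DESeq2, 0.03238 with limma voom and -0.05547 to 0.03107 with 1 left out. Tekt5 with Ad-TGF-β1 was -0.1144 to 0.1507 with 1 left out. No paired analysis was possible because the labels give no replicate number that groups share. The number of members was 63 also with plain totals.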
